A study of Mus musculus with 45 samples.

Results

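The genes described here encode the subunits of respiratory complexes II, III, IV and V and cytochrome c, as measured in mouse NIH-3T3 cells. They were chosen by symbol: every probe set with exactly 1 gene symbol naming an Sdh subunit from Sdha to Sdhd, or beginning with Uqcr, Cox4 to Cox8 or Atp5, or equal to Cyc1 or Cycs, was taken, without Cox7c, and each gene is represented by its probe set with the highest mean over all 45 arrays. This gave 43 of the 13232 genes on the array: 4 of complex II, 9 of complex III, cytochrome c, 12 of complex IV and 17 of complex V. The pattern takes in Cox7a2l, which by name belongs with Cox7a2 but is known as a supercomplex assembly factor, so it is no core subunit.

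Complex II oxidises succinate and passes its electrons to ubiquinone. Complex III hands them to cytochrome c, a small soluble carrier, and complex IV (cytochrome c oxidase) uses them to reduce oxygen. The proton gradient built by complexes III and IV, together with complex I, drives complex V, the ATP synthase. Apart from a few subunits of complexes III to V that mitochondrial DNA encodes, all these proteins are made from nuclear genes, so their mRNAs pass through the same transcription and decay as other nuclear transcripts.

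NIH-3T3 is an immortalised fibroblast line from mouse embryo. RNA was hybridised to Affymetrix arrays, and in every group the cells had been thawed 5 to 15 passages earlier, plated at 40% density 24 h ahead and used at about 80% density in medium with 5% newborn calf serum. Experiments began with fresh medium that carried either 4-thiouridine (4sU), a uridine analogue that marks RNA made while it is present, or actinomycin D, which blocks transcription. The actinomycin D groups are total RNA after 1 h and after 2 h at 5 µg/ml, each set against total RNA from before the drug, with 3 arrays per group. Newly transcribed (4sU-marked) RNA was measured after 15 min of label (500 µM, 3 arrays), after 30 min (500 µM, 9 arrays) and after 60 min (200 µM, 3 arrays), with total RNA of the labelled cells at 30 min (9 arrays) and 60 min (3 arrays). The unmarked, pre-existing RNA was measured at 60 min as well (3 arrays). A second 60 min set with 200 µM 4sU, called 2F in the labels, has newly transcribed and total RNA with 3 arrays each; what 2F stands for is not explained there, nor is the word mock in the 15 and 60 min titles. All 11 groups are of one cell line in culture, and nothing says whether arrays of a group came from separate cultures, so p-values cover only how arrays of one group vary, and that may be technical variation.

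The values are normalised array signals and carry no measure of how much RNA there was (the median log2 of an array ran from 4.51 to 5.33), so a gene below 0 on log2(newly transcribed / total) had a lower signal on the arrays of new RNA, whose relation to RNA amount was not tested. Fibroblast markers were present (11 of 11 at mean log2 of 5 or more, summed intensity from 54700 to 79600 over the groups), whereas 0 of 4 epithelial, 0 of 3 leukocyte and 0 of 3 endothelial and muscle markers on the array reached that level. Some arrays stood apart. The 3′ over 5′ difference of the Gapdh control probe sets was 3.07 (log2) on newly transcribed 60 min array 1, and that of Actb was 3.08 on total 60 min array 2. The 30 min arrays fell into 3 sets of 3 (arrays 1, 4 and 7; 2, 5 and 8; 3, 6 and 9): the SD of the log2 difference between 2 total RNA arrays was 0.145 to 0.219 within a set and 0.393 to 0.679 between sets. For newly transcribed RNA the ranges overlapped (0.199 to 0.403 within a set and 0.274 to 0.764 between sets). The labels do not name these sets, so results at 30 min were also computed with each set averaged into 1 array. The part of these array differences in any result below was not tested beyond the values given with and without them.

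The promoters of 31 of the 43 genes were at hand (RefSeq, GRCm38.p6, from 250 bases before to 50 after the gene's start). Sdhb, Uqcr11, Atp5e and Atp5o, printed first because they mark one end of the list, are the 4 genes that stood among the 10 lowest of the 40 in newly transcribed over total RNA in all 3 labelling experiments. Cycs encodes cytochrome c, and Uqcrfs1, Atp5b and Atp5g3 are 3 of the 5 genes among the 10 highest in all 3 experiments. Each line gives the 250 bases before the start, 5′ to 3′ on the gene's strand, with capitals where a searched motif or its reverse complement stands.
Sdhb: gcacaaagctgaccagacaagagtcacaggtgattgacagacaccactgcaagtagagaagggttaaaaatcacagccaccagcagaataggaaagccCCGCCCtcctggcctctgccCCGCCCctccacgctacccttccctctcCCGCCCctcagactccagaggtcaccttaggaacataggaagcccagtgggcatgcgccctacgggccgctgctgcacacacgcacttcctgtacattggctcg
Uqcr11: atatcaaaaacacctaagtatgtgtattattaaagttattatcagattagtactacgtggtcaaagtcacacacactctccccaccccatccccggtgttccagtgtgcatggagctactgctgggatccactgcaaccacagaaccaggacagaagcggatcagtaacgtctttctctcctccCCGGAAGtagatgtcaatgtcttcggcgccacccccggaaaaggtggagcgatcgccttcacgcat
Atp5e: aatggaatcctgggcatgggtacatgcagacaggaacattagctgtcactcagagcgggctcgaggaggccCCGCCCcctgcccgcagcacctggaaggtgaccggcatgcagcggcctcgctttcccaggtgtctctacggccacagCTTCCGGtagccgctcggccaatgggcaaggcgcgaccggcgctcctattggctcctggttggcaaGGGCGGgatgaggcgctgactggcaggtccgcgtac
Atp5o: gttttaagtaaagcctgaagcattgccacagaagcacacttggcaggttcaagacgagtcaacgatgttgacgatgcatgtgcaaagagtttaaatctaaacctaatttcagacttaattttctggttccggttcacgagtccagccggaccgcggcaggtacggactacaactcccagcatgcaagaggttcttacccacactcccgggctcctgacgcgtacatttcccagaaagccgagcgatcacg
Cycs: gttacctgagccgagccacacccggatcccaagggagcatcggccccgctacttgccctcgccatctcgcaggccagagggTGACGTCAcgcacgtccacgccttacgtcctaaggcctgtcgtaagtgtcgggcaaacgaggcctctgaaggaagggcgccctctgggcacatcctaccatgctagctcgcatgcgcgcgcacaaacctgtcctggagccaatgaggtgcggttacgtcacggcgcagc
Uqcrfs1: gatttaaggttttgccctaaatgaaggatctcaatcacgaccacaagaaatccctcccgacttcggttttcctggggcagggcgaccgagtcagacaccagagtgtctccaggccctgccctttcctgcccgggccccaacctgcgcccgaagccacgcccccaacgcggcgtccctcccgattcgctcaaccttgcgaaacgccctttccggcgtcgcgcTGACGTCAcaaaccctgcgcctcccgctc
Atp5b: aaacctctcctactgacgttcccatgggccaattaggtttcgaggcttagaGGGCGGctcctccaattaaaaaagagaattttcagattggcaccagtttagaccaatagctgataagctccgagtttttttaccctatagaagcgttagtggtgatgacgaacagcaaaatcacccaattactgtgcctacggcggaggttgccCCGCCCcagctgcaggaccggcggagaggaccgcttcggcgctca
Atp5g3: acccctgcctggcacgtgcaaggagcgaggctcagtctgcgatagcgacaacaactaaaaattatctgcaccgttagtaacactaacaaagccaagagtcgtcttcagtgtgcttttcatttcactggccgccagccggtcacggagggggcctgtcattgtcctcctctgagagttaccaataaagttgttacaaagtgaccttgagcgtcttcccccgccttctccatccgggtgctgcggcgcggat
The windows lie at chr4:140961021-140961270 (plus strand) for Sdhb, chr10:80406822-80407071 (minus strand) for Uqcr11, chr2:174464102-174464351 (minus strand) for Atp5e and chr16:91931631-91931880 (minus strand) for Atp5o. The others lie at chr6:50566570-50566819 (minus strand) for Cycs, chr13:30545317-30545566 (minus strand) for Uqcrfs1, chr10:128083057-128083306 (plus strand) for Atp5b and chr2:73911327-73911576 (minus strand) for Atp5g3.

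The 6 motifs are letters bound by factors known for promoters of respiratory genes or for promoters at large, searched on both strands over the whole window with no allowance for mismatches; other spellings had been counted first, and these were settled on with those counts in view. The core of sites of nuclear respiratory factor 1, 10 letters with 1 left free, stood in 10 of the 31 windows (32.3%), against 13.4% of 6775 genes above the level filter and 5.19% of all 27025 genes with a window. CCGGAAG, an ETS core bound by GABP, stood in 13 (41.9%), against 23.5% and 9.93%. GGGCGG, the Sp1 box, also stood in 13 (41.9%), against 73.4% of the filtered genes and 38.2% of all. The remaining 3 motifs were rarer. AAGATGGC (YY1) stood in 3 windows (9.68%, against 6.35%), TGACGTCA (CREB) in 2 (6.45%, against 3.9%) and TATAAA, the core promoter box, in 2 (6.45%, against 8.28%). In the printed windows the capitals of Sdhb and Atp5b are Sp1 boxes, those of Uqcr11 an ETS core, those of Atp5e both, and those of Cycs and Uqcrfs1 TGACGTCA. The nuclear respiratory factor 1 core of Atp5o lies at bases 10 to 19 after the start and that of Atp5g3 at bases 13 to 22, outside the printed stretch, as do an ETS core of Sdhb (7 to 13) and an Sp1 box of Cycs (32 to 37). None of the 6 motifs lies inside another (0 pairs), and a match is a description of letters, not a bound site.

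In total RNA before actinomycin D most of the genes were among the brighter signals of the array. The median over the 40 genes above the level filter (mean log2 of at least 5, an intensity of 32) was 11.05 ± 0.07 log2 (SD, n = 3 arrays). The 3 genes below it, Cox4i2, Cox6a2 and Cox8c, are isoforms known from lung, from heart and skeletal muscle, and from testis, and averaged 2.33, 2.41 and 1.95 log2 over all 45 arrays. They were not tested. Among the complexes, complex IV had a median of 12.14 ± 0.05 before the drug, complex V 11.10 ± 0.04, complex III 10.45 ± 0.23 and complex II 9.61 ± 0.11. Probe sets differ in brightness for reasons of their own, so these levels rank neither genes nor complexes by mRNA amount.

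**Figure D1:**
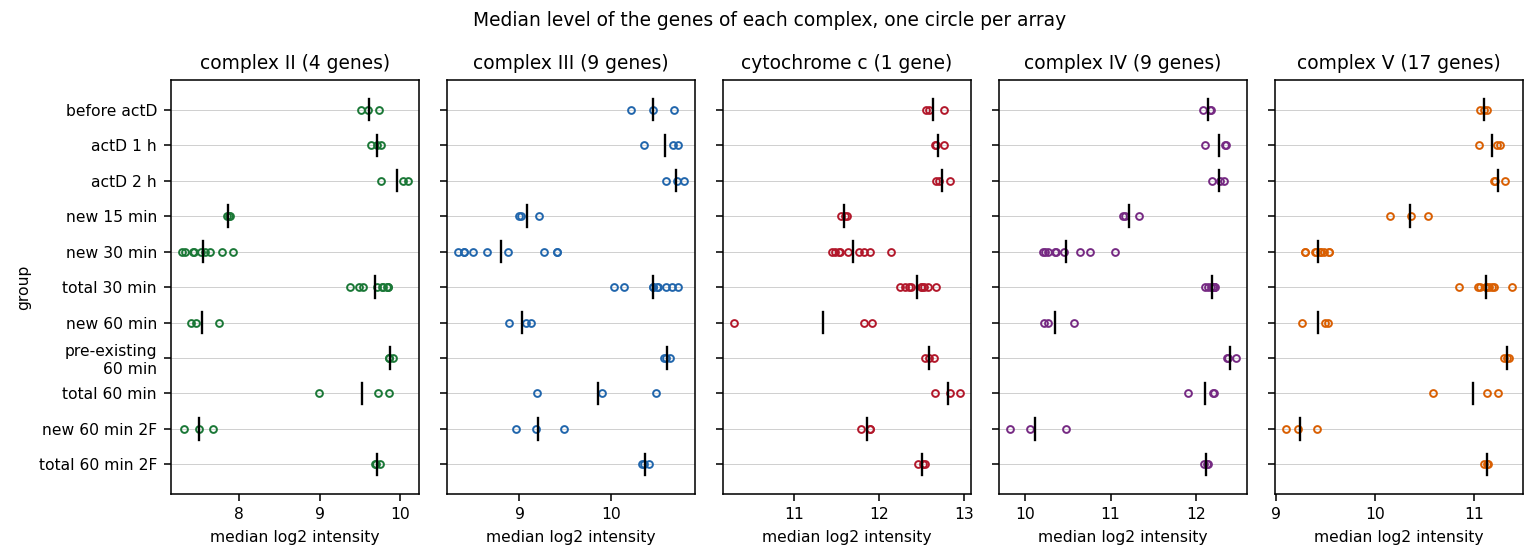
Median log2 intensity over the genes of each complex above the level filter, with 1 circle per array and a bar at the group's mean, for the 11 groups from top to bottom. In each complex the means of newly transcribed RNA lie to the left of those of total, pre-existing and actinomycin D RNA, and for complexes II to V the 15 min mean lies to the right of the 30 min mean.

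Newly transcribed RNA after 30 min held all 40 measured genes below their level in total RNA. Of these, 37 were called lower (limma, Benjamini-Hochberg adjusted p below 0.05 and at least 2-fold) and 0 higher, where 25.6% of all 16044 probe sets tested were called lower and 23.7% higher. All 40 passed the adjusted p downwards, as did 44.1% of probe sets. With 1 probe set per gene, 29.1% of all genes were called lower. The median difference of the 40 was -1.68 (log2), against -0.14 for all probe sets and -0.33 for all genes. In 40 of 40 genes the 9 newly transcribed arrays did not overlap the 9 total RNA arrays, as in 53% of all probe sets. With the 30 min sets averaged, 37 genes were again called, and the highest adjusted p among the 40 was 0.017. The 30 min values by gene below take the 9 arrays as separate. Their standard errors and adjusted p were larger with the sets averaged, as given for some genes.

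Complex II was the lowest by its median, -2.14, with 4 of 4 genes called. Sdhb, the iron-sulphur subunit, ranged from 6.83 to 7.98 log2 (median 7.26) over the 9 newly transcribed arrays, against 10.07 to 10.49 (median 10.31) over the 9 total RNA arrays. The groups lay more than 2 log2 units apart, and the difference was -2.94 ± 0.13 (SE, adjusted p = 1.9e-13, limma). With the 30 min sets averaged the SE was 0.25 and the adjusted p 0.00012 (limma). Sdha, the flavoprotein that binds succinate, stood at -1.94 ± 0.15 and Sdhd, a membrane anchor, at -1.40 ± 0.10, the smallest decrease in this complex. Another probe set of Sdhd stood at -0.54 ± 0.11 and was not called, whereas the other measured ones of Sdha and Sdhc were called lower.

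In complex III, 9 of 9 genes were called, with a median of -1.65 and a wide spread. Uqcr11, a small accessory subunit, ranged from 6.69 to 8.32 log2 (median 7.22) in newly transcribed RNA, against 10.03 to 10.62 (median 10.33) in total RNA, a difference of -3.05 ± 0.18. At the other end Uqcrfs1, the Rieske iron-sulphur protein, ranged from 8.33 to 9.41 (median 8.42), against 9.57 to 10.02 (median 9.78), a difference of -1.04 ± 0.16 (adjusted p = 6.8e-06, limma). Between them, Cyc1, which carries haem c1, stood at -1.40 ± 0.09 and the core protein Uqcrc1 at -2.58 ± 0.19. With the 30 min sets averaged, Uqcrfs1 had an SE of 0.29 and an adjusted p of 0.017 (limma).

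With the probe sets used, cytochrome c itself changed least of the 40. Cycs ranged from 11.45 to 12.14 log2 (median 11.64) over the newly transcribed arrays, against 12.25 to 12.67 (median 12.49) over the total RNA arrays. The arrays did not overlap and the adjusted p was 7.3e-07 (limma), but the difference of -0.75 ± 0.10 was under 2-fold. With the 30 min sets averaged the SE was 0.2 and the adjusted p 0.014 (limma). Another probe set of Cycs stood at -0.65 ± 0.10. A further one stood at -0.18 ± 0.11 and did not pass (adjusted p = 0.14, limma), with -0.14 in the 2F experiment.

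With the probe sets used, the 9 measured genes of complex IV lay close together, from -1.86 ± 0.10 for Cox5b to -1.47 ± 0.10 for Cox5a, with 9 of 9 called. Other probe sets of these genes went beyond that range on both sides, such as those of Cox6b1 at -2.25 ± 0.10 and Cox6c at -1.21 ± 0.11. Cox4i1, the ubiquitous form of the regulatory subunit IV, ranged from 10.20 to 11.15 log2 (median 10.32) in newly transcribed RNA, against 12.28 to 12.50 (median 12.37) in total RNA, a difference of -1.85 ± 0.14. Cox7a2l, the assembly factor, fell by 1.53 ± 0.11. Complex III, by comparison, ran from -3.05 to -1.04 and complex V from -3.06 to -0.98.

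Complex V ran from the lowest gene of the list to the one next to Cycs at its upper end, with 15 of 17 genes called and a median of -1.77. Atp5o, the OSCP subunit that ties the F1 head to the peripheral stalk, ranged from 7.06 to 7.91 log2 (median 7.37) in newly transcribed RNA, against 10.12 to 10.66 (median 10.57) in total RNA. Its difference of -3.06 ± 0.11 was the lowest of all 40 genes. Of the F1 head, Atp5a1 (alpha) stood at -1.57 ± 0.11 and Atp5b (beta) at -1.26 ± 0.10, nearer to 0 than Atp5e (epsilon) at -2.92 ± 0.16. The 3 genes Atp5g1, Atp5g2 and Atp5g3, which encode the same mature ring subunit c behind different import sequences, gave 3 values: Atp5g2 stood at -2.66 ± 0.13, Atp5g1 at -1.89 ± 0.09 and Atp5g3 at -0.98 ± 0.08. The difference between them was not tested, and with the 30 min sets averaged the standard errors were 0.24, 0.19 and 0.19. Atp5g3 and Atp5pb (subunit b of the stalk, -1.0 ± 0.08) passed the adjusted p but stood just short of 2-fold.

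**Figure D2:**
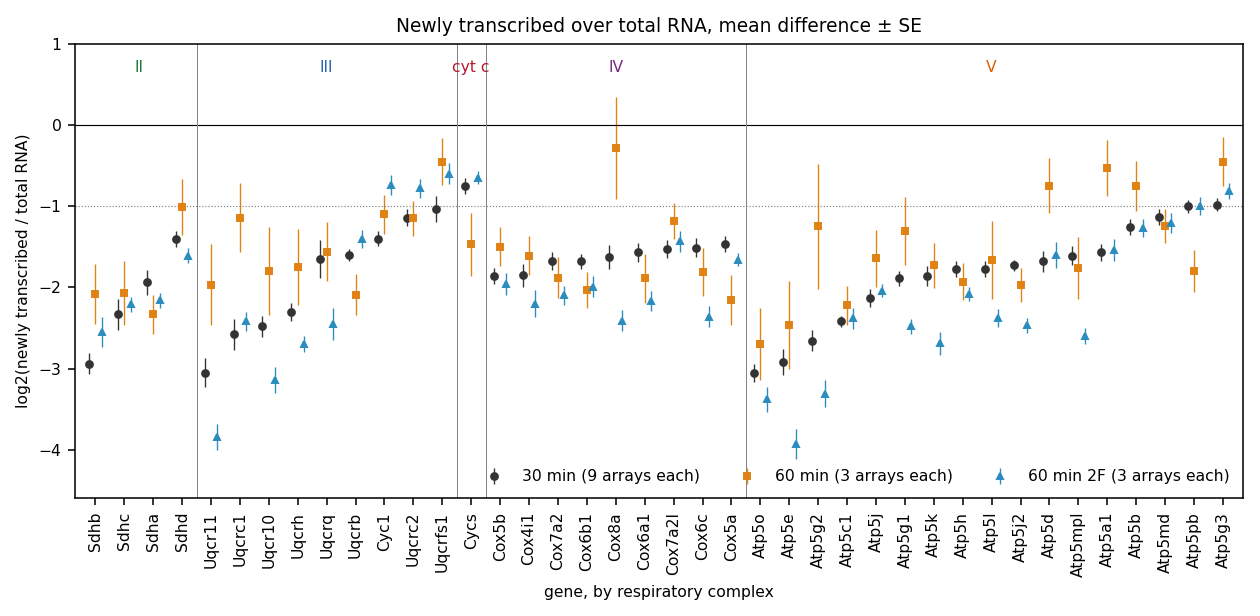
Difference between newly transcribed and total RNA (log2, mean ± SE) for the 40 genes above the level filter, ordered within each complex by the 30 min value; circles are 30 min, squares 60 min and triangles 60 min 2F, and the dotted line marks a 2-fold decrease. With the probe sets used, the complex IV genes form a flat row at 30 min, while complexes III and V run from about -3 to about -1.

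In both 60 min experiments the mean difference of every one of the 40 genes was below 0. In the 2F experiment 34 of 40 genes were called lower and 0 higher, where 21.8% of 16205 probe sets were called lower and 24% higher. All 40 passed the adjusted p, as 40.8% of probe sets did downwards, and in all 40 the groups did not overlap, as in 85.9% of probe sets. The median was -2.16, against 0.04 for all probe sets. In the other 60 min experiment 33 of 40 were called lower and 0 higher (21.8% of 15411 probe sets were called lower and 17.7% higher), with a median of -1.69 against -0.14 and no overlap in 29 genes, against 49.6% of probe sets. Without the 2 arrays that stood apart in that experiment the count was 37 and the median -1.98, and over the 6 fits that leave out 1 array it ran from 27 to 36.

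Atp5e was the lowest gene of the 2F experiment. Its log2 levels were 6.06, 6.44 and 6.84 in newly transcribed RNA, against 10.34, 10.34 and 10.45 in total RNA, a difference of -3.93 ± 0.18 (adjusted p = 1.4e-07, limma), or 15.3-fold lower. In the other 60 min experiment the same gene had 7.93, 6.82 and 6.38, against 10.29, 8.25 and 9.96. Array 1 of newly transcribed and array 2 of total RNA, those that stood apart, lie nearest to each other there, and the difference was -2.46 ± 0.54 with them and -3.52 ± 0.24 without.

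Without them Atp5e was the lowest gene there too. Atp5o, again low in both, had 6.79, 7.30 and 7.34 log2 in newly transcribed 2F RNA, against 10.49, 10.50 and 10.58 in total 2F RNA, a difference of -3.38 ± 0.15. In the other experiment it was the lowest gene over all arrays, at -2.70 ± 0.44, and at -3.49 ± 0.25 without the 2 arrays. Uqcr11 had 6.25, 6.38 and 6.92 in newly transcribed 2F RNA, against 10.33, 10.32 and 10.41, a difference of -3.84 ± 0.16. Sdhb was at -2.55 ± 0.18 in the 2F experiment and at -2.08 ± 0.37 in the other. These are the 4 genes in the lowest 10 of all 3 experiments; without the 2 arrays there were 7, with Uqcr10, Uqcrh and Atp5g2 besides.

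Uqcrfs1 stood nearest to 0 in the 2F experiment, with 8.96, 9.18 and 9.48 log2 in newly transcribed RNA, against 9.77, 9.81 and 9.87 in total RNA, a difference of -0.60 ± 0.13. Cycs followed at -0.65 ± 0.08, with 11.89, 11.90 and 11.79, against 12.46, 12.52 and 12.54. The other genes not called there at 2-fold were Cyc1 (-0.74 ± 0.12), Uqcrc2, the second core protein (-0.78 ± 0.12), Atp5g3 (-0.81 ± 0.10) and Atp5pb (-1.0 ± 0.11). Atp5a1 and Atp5b were at -1.54 ± 0.14 and -1.27 ± 0.11, near their 30 min values. In the other complexes Sdha was at -2.16 ± 0.09, Sdhd at -1.61 ± 0.09, Uqcrc1 at -2.42 ± 0.12, Cox4i1 at -2.20 ± 0.17 and Cox5a at -1.66 ± 0.08. The 5 genes among the 10 highest in all 3 experiments were Cyc1, Uqcrc2, Uqcrfs1, Atp5b and Atp5g3, and without the 2 arrays that stood apart Cycs and Atp5md joined them (Atp5md tied with Sdhd for the last place). By complex, the 2F medians were -2.18 for complex II, -2.42 for complex III, -2.10 for complex IV and -2.38 for complex V, and the lowest member of complex IV was Cox8a at -2.41 ± 0.13, the highest Cox7a2l at -1.43 ± 0.13. 

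In the first 60 min experiment 7 genes were not called at 2-fold. They were Uqcrfs1 (-0.45 ± 0.29), Cox8a (-0.28 ± 0.63), Atp5a1 (-0.53 ± 0.35), Atp5b (-0.75 ± 0.31), Atp5d (-0.75 ± 0.34), Atp5g2 (-1.25 ± 0.77) and Atp5g3 (-0.45 ± 0.30). Their standard errors are larger than in the other experiments. Without the 2 arrays that stood apart 5 of the 7 passed 2-fold, Cox8a at -1.33 ± 0.20, Atp5a1 at -1.10 ± 0.19, Atp5b at -1.04 ± 0.20, Atp5d at -1.11 ± 0.22 and Atp5g2 at -2.43 ± 0.22, while Uqcrfs1 (-0.66 ± 0.22) and Atp5g3 (-0.48 ± 0.17) did not. Cycs was called there at -1.47 ± 0.39, with 10.30, 11.82 and 11.92 log2 in newly transcribed RNA, against 12.66, 12.95 and 12.83 in total RNA. The low value is that of array 1, which stood apart, and without the 2 arrays the difference was -0.87 ± 0.17, under 2-fold. The order of the genes leaned on these arrays as well. Sdha (-2.33 ± 0.24) was the lowest of complex II and Sdhd (-1.01 ± 0.35) the highest, whereas without the 2 arrays Sdhb and Sdhc were the lowest, both at -2.76. In complex III Uqcrb was the lowest (-2.09 ± 0.25), with Uqcrc1 at -1.14 ± 0.42 and Cyc1 at -1.10 ± 0.24; without the 2 arrays it was Uqcr11 (-2.93 ± 0.24), with Uqcrb at -1.78 ± 0.17 and Uqcrc1 at -1.88 ± 0.24. In complex IV Cox5a was the lowest (-2.16 ± 0.31), with Cox4i1 at -1.61 ± 0.24; without the 2 arrays it was Cox7a2 (-2.15 ± 0.19), with Cox5a at -1.77 ± 0.26.

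Over the 40 genes, the 30 min and the 2F differences, which share no array, had a Pearson r of 0.867 and a Spearman rho of 0.832, given as a description across genes that share probe sets and array scaling. Against the other 60 min experiment the values were lower, 0.522 and 0.507 for 30 min and 0.534 and 0.462 for 2F.

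**Figure D3:**
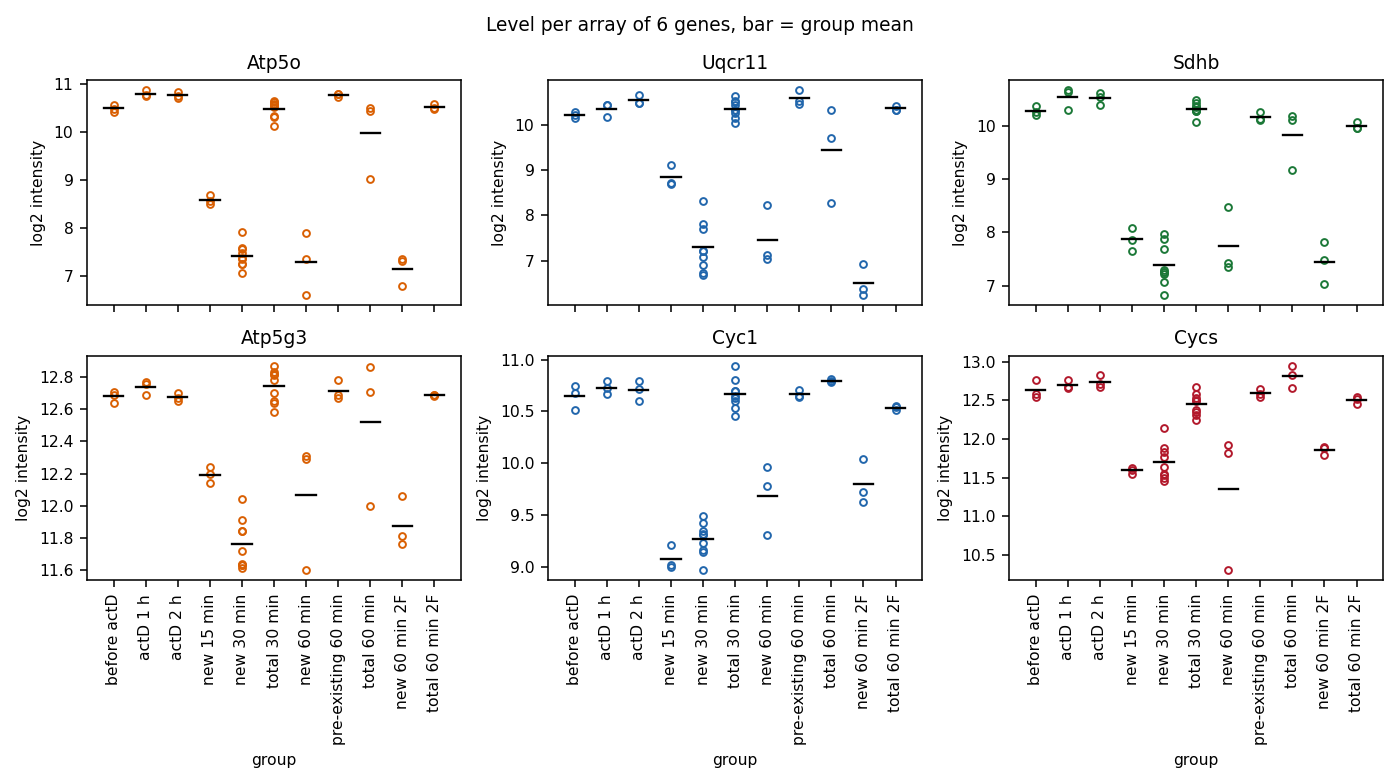
Log2 intensity on every array for 6 genes in the 11 groups, with a bar at the group's mean; the upper row holds genes low in newly transcribed RNA (Atp5o, Uqcr11, Sdhb), the lower row genes nearer to their total RNA level (Atp5g3, Cyc1, Cycs), and each panel has its own scale. In the upper row 1 of the 3 total 60 min circles lies below the others; it is array 2, which stands apart.

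Differences between the experiments were tested as an interaction, the 60 min newly transcribed over total RNA difference minus the 30 min one. Of the 40 genes, 3 were called higher and 0 lower, where 10.3% of 15978 probe sets were called higher and 11.8% lower (5 were called higher with the replicate as a block). They were Uqcrc1 (1.44 ± 0.41, adjusted p = 0.011, limma), Cox8a (1.35 ± 0.49, adjusted p = 0.037) and Atp5a1 (1.05 ± 0.28, adjusted p = 0.008). Cox8a, the small subunit VIII, had 8.96, 8.56 and 8.63 log2 in newly transcribed 60 min RNA, against 10.14, 7.15 and 9.70 in total 60 min RNA. The second total RNA array lies below all 3 newly transcribed arrays. Without that array the count was 0, as it was without newly transcribed array 1 and with the 30 min sets averaged. It was 8 without total 60 min array 1, 6 without newly transcribed array 2 or 3 and 5 without total array 3. Between the 2F and the other 60 min experiment 0 genes were called by limma (3 lower with the replicate as a block, 10 lower without total 60 min array 1), where 0.0876% of probe sets were called lower and 0.294% higher; 13 genes were lower and 3 higher at an unadjusted p below 0.05.

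Pre-existing RNA was set against total RNA of the same 60 min labelling. No gene was called in either direction by limma, where 1.87% of 15411 probe sets were called higher and 6.96% lower; 7 genes were higher and 0 lower at an unadjusted p below 0.05. The median was 0.39, against 0.11 for all probe sets, and 33 of 40 genes were above 0, as were 56.1% of probe sets. Uqcr11 had 10.52, 10.75 and 10.45 log2 in pre-existing RNA, against 10.31, 8.27 and 9.71 in total RNA, a difference of 1.14 ± 0.50 (adjusted p = 0.17). In 16 genes the groups did not overlap, where 45.8% of probe sets did not. The highest was Cox8a at 1.58 ± 0.63 (adjusted p = 0.14) and the lowest Uqcrb, known as the ubiquinone-binding protein, at -0.28 ± 0.25. In complex II values ran from 0.19 ± 0.24 (Sdha) to 0.90 ± 0.40 (Sdhc), in complex V from -0.01 ± 0.26 (Atp5pb) to 1.47 ± 0.77 (Atp5g2), and Cox6a1 was the lowest of complex IV at -0.12 ± 0.30. Cycs stood at -0.22 ± 0.39 and Cyc1 at -0.12 ± 0.24. These values lean on total RNA array 2: without it and newly transcribed array 1 the median was 0.15, Cox8a stood at 0.66 ± 0.19, Uqcr11 at 0.56 ± 0.22, Sdhc at 0.43 ± 0.19 and Atp5g2 at 0.33 ± 0.20, and Uqcrc1 was the highest at 0.67 ± 0.22. One fit over all 45 arrays called 6 genes higher, and the fit without total 60 min array 1 called 4 higher.

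Newly transcribed RNA of 15 min was set against that of 30 min. Of the 40 genes 15 were called higher and 0 lower, where 9.5% of 16224 probe sets were called higher and 7.59% lower. Of all genes, with 1 probe set each, 1.79% were called higher. The median difference was 0.86, against -0.18 for all probe sets and -0.30 for all genes. At any fold 24 passed the adjusted p upwards and 1 downwards, where 15.8% and 23.4% of probe sets did, and the 3 arrays at 15 min did not overlap the 9 at 30 min in 25 genes, as in 36.3% of probe sets. The count was 15 again with the 30 min sets averaged and ran from 13 to 18 without 1 of the 15 min arrays. The 3′ over 5′ difference of Actb was 1.03 to 1.12 (log2) on the 15 min arrays and 0.67 to 0.89 on the 30 min arrays, with no overlap, while that of Gapdh overlapped (-0.14 to 0.03 and -0.14 to 0.90); the part of this in the difference was not tested.

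Complex V carried 9 of the 15 calls (9 of its 17 genes), complexes III and IV 3 of 9 each, and complex II 0 of 4. Atp5k, the small subunit e of the membrane part, was the highest, with 10.39, 10.44 and 10.68 log2 at 15 min, against 8.51 to 9.53 (median 8.82) at 30 min. Its 15 min arrays all lay above its 30 min arrays, by 1.67 ± 0.21 on average (adjusted p = 2.6e-05, limma), and came near to its total RNA at 30 min (10.61 to 10.96, median 10.65). With the 30 min sets averaged the SE was 0.25 and the adjusted p 0.0016 (limma). Uqcr11 (8.72, 8.69 and 9.10, a difference of 1.54 ± 0.31) and Cox6c (11.68, 11.71 and 11.89, a difference of 1.49 ± 0.19), both small subunits, led complexes III and IV. Complex II ran from 0.22 ± 0.16 for Sdhd to 0.57 ± 0.23 for Sdhc, the other membrane anchor, with Sdha at 0.35 ± 0.23 and Sdhb at 0.48 ± 0.26. Atp5o was called at 1.16 ± 0.22, Cox4i1 stood at the threshold without being called (1.00 ± 0.22, adjusted p = 0.0021), and Uqcrc1 (0.79 ± 0.22), Cox5a (0.47 ± 0.20) and Atp5b (0.21 ± 0.15) lay under 2-fold.

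The exception in direction was Uqcrfs1. It had 8.09, 8.15 and 7.93 log2 at 15 min, against 8.33 to 9.41 (median 8.42) at 30 min, a difference of -0.68 ± 0.25 (adjusted p = 0.036, limma), below 2-fold. Its 30 min arrays 1, 4 and 7 lay at 9.27 to 9.41 and the other 6 at 8.33 to 8.57, and with the 30 min sets averaged it no longer passed (adjusted p = 0.08). Cyc1 (-0.19 ± 0.15), Atp5a1 (-0.12 ± 0.18) and Cycs (-0.10 ± 0.25) were below 0 without passing the test. Within complex IV the lowest was Cox7a2l at 0.13 ± 0.18. The 15 and 60 min titles hold the word mock and the 30 min titles do not. Label time cannot be told apart from that, or from any array batch, which the labels do not name. No total RNA at 15 min was used. Between 60 and 30 min of label, where the 4sU dose differs too, 0 genes were called by limma (5.23% of probe sets were called higher and 12.1% lower), with a median of -0.03; 4 genes were higher and 3 lower at an unadjusted p below 0.05.

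After actinomycin D none of the 40 genes was called at 2-fold by limma, at 1 h or at 2 h, whereas 3.58% of 15060 probe sets were called lower and 2.57% higher at 1 h, and 9.42% lower and 0.538% higher at 2 h. Of 8151 genes with 1 probe set each, 324 were called lower and 57 higher at 1 h, and 888 lower and 24 higher at 2 h. The largest decrease was that of Sdhc at 1 h, -0.52 ± 0.19, which did not pass the test (adjusted p = 0.052) and stood at 0.31 ± 0.19 at 2 h. At any fold, 4 genes passed upwards and 1 downwards at 1 h, where 21.9% of probe sets passed upwards and 14.4% downwards. With the replicate as a block the counts were 7 and 2. The labels state no pairing, and same-numbered arrays were not compared with differently numbered ones. At 2 h, 4 passed upwards and 0 downwards, where 16% and 18.7% of probe sets did (6 upwards with the block). The medians were 0.17 at 1 h and 0.19 at 2 h, against 0.09 and 0.10 for all probe sets. In one fit over all 45 arrays 0 genes passed at either time. The count at any fold was 11 without 1 h array 1 and 2 or 3 without any other array at 1 h, and at 2 h it was 1 without 2 h array 2 or 3, or without array 2 or 3 from before the drug, and 2 without array 1 from before. At an unadjusted p below 0.05, 9 genes were higher and 2 lower at 1 h, and 8 higher and 0 lower at 2 h.

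Sdha was one of those that passed at both times. It had 9.33, 9.48 and 9.34 log2 before the drug, 9.77, 9.82 and 9.89 at 1 h and 9.70, 9.74 and 9.86 at 2 h. Both treated groups lay above the untreated arrays, by 0.44 ± 0.10 (adjusted p = 0.0082, limma) and 0.39 ± 0.10 (adjusted p = 0.014). Sdhd (0.53 ± 0.11 and 0.38 ± 0.11) and Atp5o (0.31 ± 0.10 and 0.28 ± 0.10) passed at both times too. Uqcrfs1 passed at 1 h (0.29 ± 0.10) and Cox7a2l at 2 h (0.27 ± 0.09), while Atp5d, the delta subunit of the F1 head, was lower at 1 h (-0.35 ± 0.11, adjusted p = 0.037) and at 0.00 ± 0.11 at 2 h. At 2 h the groups did not overlap in 20 genes, where 50.2% of probe sets did not, and 38 of 40 genes were above 0, as were 59.4% of probe sets, all but Atp5pb (-0.08 ± 0.10) and Atp5g3 (-0.01 ± 0.09). The highest value at 2 h was that of Uqcrc1, 0.40 ± 0.20, which did not pass. The other named genes lay between, with Sdhb at 0.25 ± 0.13, Cyc1 at 0.06 ± 0.11, Cox4i1 at 0.05 ± 0.10, Cox5a at 0.20 ± 0.10, Atp5a1 at 0.14 ± 0.10 and Atp5b at 0.04 ± 0.10. Cycs had 12.77, 12.59 and 12.55 log2 before the drug, 12.67, 12.76 and 12.66 at 1 h and 12.71, 12.67 and 12.83 at 2 h. Its groups overlapped, and the 95% interval of the 2 h difference ran from -0.13 to 0.33. The median log2 of an array was 4.51 to 4.64 at 2 h and 4.86 to 4.98 before the drug, and the part of array scaling in these small differences was not tested.

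**Figure D4:**
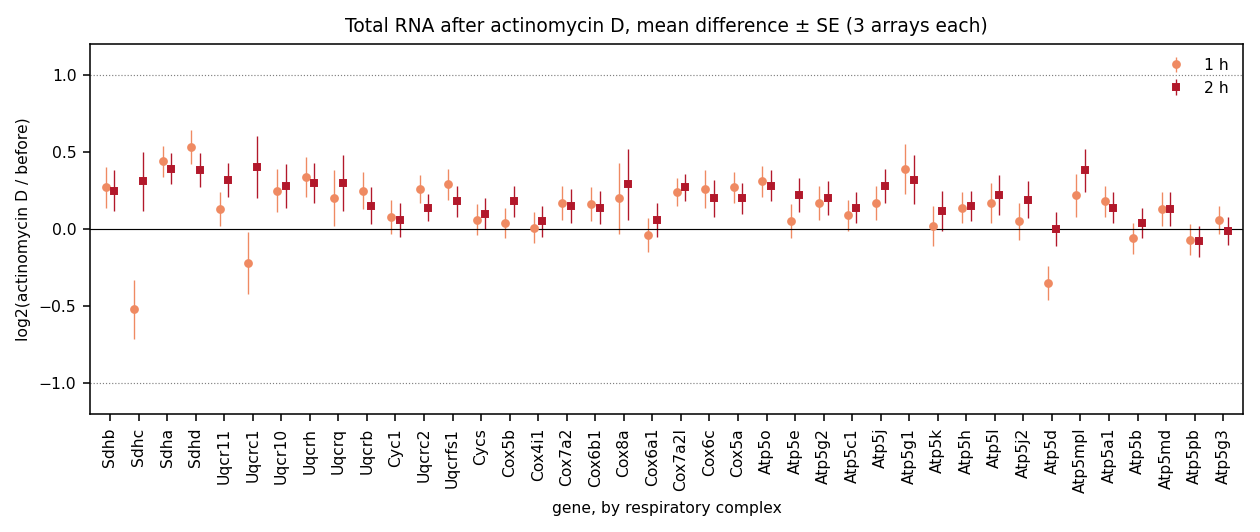
Difference between total RNA after actinomycin D (1 h circles, 2 h squares) and before the drug (log2, mean ± SE, 3 arrays per group) for the 40 genes, ordered by complex as in the plot of newly transcribed over total RNA; dotted lines mark 2-fold. No gene reaches 2-fold at either time, and at 2 h only 2 lie below 0.

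Total RNA of labelled cells was also set against total RNA from before actinomycin D. By limma 0 genes were called at 30 min and 0 in the 2F experiment (medians -0.01 and 0.00), where 0.181% of 15455 probe sets were called lower and 0.544% higher at 30 min, and 0.498% lower and 1.36% higher in the 2F experiment; at an unadjusted p below 0.05, 1 gene was higher at 30 min and 1 lower in the 2F experiment. At 60 min 1 was called lower, Cox8a (-1.45), where 4.98% of probe sets were called lower and 3.49% higher. That count was 0 without total 60 min array 2 or without any one of the 3 arrays from before the drug, and 8 without total 60 min array 1.

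A half-life was computed per gene from the 60 min arrays, with the newly transcribed fraction scaled by a line of pre-existing over total on newly transcribed over total RNA. It assumes a constant amount of total RNA. The median over the 40 genes was 80.1 h, against 28.5 h over 5537 genes with mean log2 of at least 7, a ratio of 2.81. By complex the medians were 104 h for complex II, 73.1 h for complex III, 86.9 h for complex IV and 78.3 h for complex V, and Cycs stood at 68.3 h. These values include the 2 arrays that stood apart. Without them the newly transcribed over total RNA difference of Cycs was -0.87 in place of -1.47, and hours without them are not given by gene or complex. The hours hang on the scale of the line and are not firm: the 2F arrays gave 24.5 h against 5.47 h, a robust line 36.0 h against 12.7 h, and leaving out replicate 2 or 3 gave 35.2 h or 572 h. The ratio of the members to all genes ran from 2.54 to 4.47 over the settings that gave one. At small new fractions the scale nearly cancels in this ratio, which was 2.82 with an orthogonal and 2.84 with a robust line. It therefore restates the newly transcribed over total RNA difference and is no separate result.

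Other genes of the pathway were counted at 30 min from lists of known members, again beside 25.6% of all probe sets called lower and 23.7% higher. The lists hold 1 probe set per gene, and of 8226 genes counted in that way 2391 were called lower and 1187 higher. Of complex I subunits, 32 of 32 tested were called lower in newly transcribed over total RNA, with a median of -2.07. Assembly factors of complexes II to V were mixed, with 17 of 30 called lower and 2 higher. The 2 higher were Ttc19, which acts on complex III (3.44 ± 0.12), and Cox11, a copper chaperone of complex IV (1.60 ± 0.14). Citrate cycle genes had 11 of 13 called lower and 0 higher. Regulators of mitochondrial biogenesis had 1 of 16 lower and 4 higher, with a median of 0.06. This share of higher calls was near that of all probe sets and above that of all genes, a difference that was not tested. Nrf1, nuclear respiratory factor 1, stood at 1.90 ± 0.15 and Pprc1, a relative of the coactivator PGC-1, at 1.22 ± 0.10. After 2 h of actinomycin D 4 of 13 regulators were called lower, among them Pprc1 at -3.22 ± 0.20 and Nrf1, whose mean was 4.73 log2 after the drug, under the filter level, and 5.76 before it. Of assembly factors 2 of 30 were called lower and of complex I subunits 0 of 34, beside 9.42% of all probe sets.

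The genes have 85 probe sets in all, and 27 genes have more than 1. Of the 42 not used, 33 were above the filter at 30 min: 25 were called lower, 5 were not called and 3 were called higher in newly transcribed over total RNA. These 3 went against the probe set used for the same gene. For Atp5g2 the used probe set stood at -2.66 ± 0.13 and the other at 2.95 ± 0.21, with means of 9.14 log2 in newly transcribed and 6.19 in total RNA. For Atp5c1, the gamma subunit of the F1 head, the used probe set stood at -2.42 ± 0.07, and the other averaged 7.98 in newly transcribed and 4.25 in total RNA. For Cox5b the used probe set stood at -1.86 ± 0.10, and the other averaged 6.29 and 4.09. The last 2 were under the filter level of 5 in total RNA and passed it only through newly transcribed RNA. The size of their difference is therefore not given here, and what the 3 detect was not tested. The used probe sets of Sdhb, Uqcr11, Atp5o, Cycs and Uqcrfs1 are not of the kinds marked as shared between genes (ending in _s_at or _x_at). Those of several other genes are, among them Atp5e, Atp5c1, Atp5d, Cox5b, Cox8a, Uqcrh and Uqcrq. The values of such genes are uncertain where related sequences hybridise to the same probes. Cox7c, left out of the choice, has a probe set of the shared kind that averaged 9.56 log2 in newly transcribed and 4.78 in total RNA at 30 min. The level in total RNA is under the filter level, so the size of the difference is not given.

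**Figure D5:**
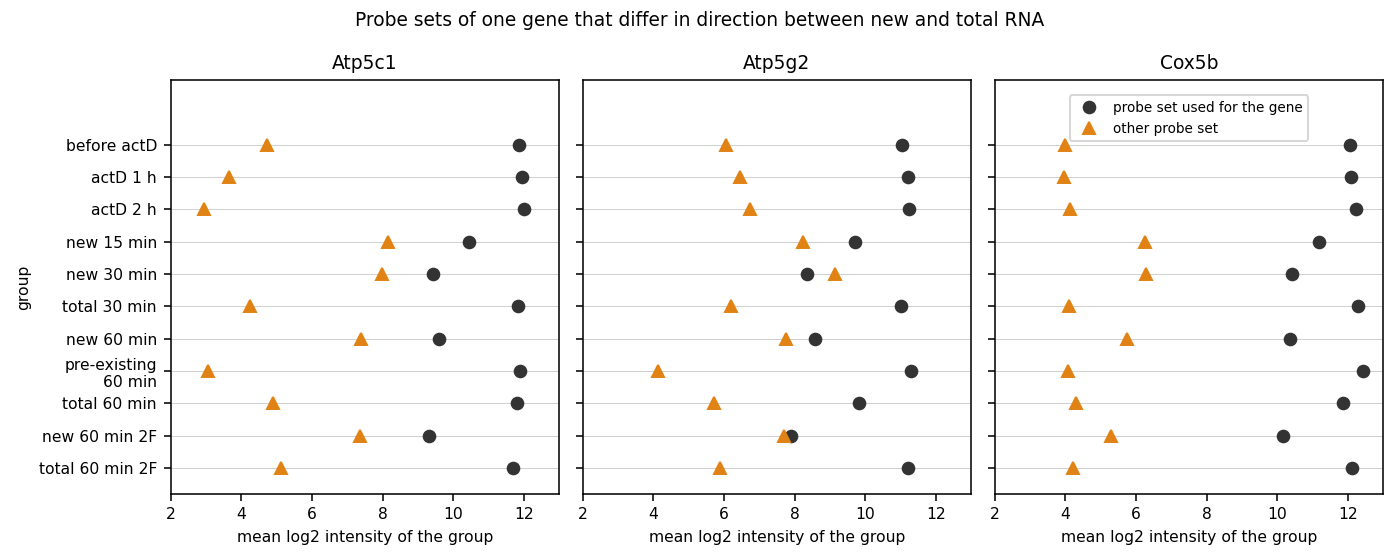
Mean log2 intensity of the 11 groups for the probe set used for each of 3 genes (black circles) and for the other probe set of that gene that was called higher in newly transcribed over total RNA at 30 min (orange triangles). The circles of newly transcribed RNA lie left of those of total RNA, and the triangles lie right of theirs.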

How the data were processed

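RNA of NIH-3T3 cells was measured on 45 Affymetrix arrays in 11 groups. The deposited value table holds 31451 probe sets as linear intensities, which the authors made with GCRMA (background correction and normalization from probe sequence), per the submitters' processing notes; the version and further steps are not given in the sources used here. The number of arrays, not a count of molecules, limits the precision. Intensities were taken as log2, and 61 control probe sets were left out.

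Genes were named from the platform's annotation (25031 probe sets with 1 symbol, 13232 genes), and 43 of 43 genes matched RefSeq by Entrez identifier. limma 3.58.1 (R 4.3.3; lmFit, then eBayes) was run per comparison on every probe set whose mean log2 over the arrays fitted reached 5, and p-values were adjusted by Benjamini-Hochberg over all of them. Called means an adjusted p below 0.05 and at least 2-fold; after actinomycin D any fold was counted too. Intervals are 95% intervals of the fit. There were 13 comparisons. On simulated data for newly transcribed over total RNA at 30 min (16048 probe sets), 99.5% of 200 probe sets changed by 1.5 (log2) were called in the right direction. The share was 97% for the 2F experiment and 95.5% for actinomycin D at 1 h. These shares hold for simulated noise only. They are no measure of power on the real arrays, where those at 30 min fell into sets.

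Same-numbered arrays deviated together (every pair's correlation over 0.1) in the actinomycin D comparisons, with 0.143 to 0.183 at 1 h and 0.259 to 0.576 at 2 h, and in those of the first 60 min experiment, with 0.149 to 0.299 for newly transcribed over total RNA. The numbers come from the sample titles, and the replicate as a block was an alternative fit. Other alternatives were quantile normalization, the level filter, an added offset, probe set kind, one fit over all arrays and leaving out arrays.

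Named in each comparison were the highest and lowest gene of each complex, 10 fixed genes, genes called against the majority, tissue isoforms and Cox7c, in the comparisons described gene by gene; the other examples were chosen after their values were seen. The genes, lists and rules were chosen with earlier results of these data known.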

Additional observations from a re-analysis of the deposited data

Results flagged for a closer look

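On 3 single arrays of total RNA at 30 min, 1 value lay far from those of the other 8 arrays (its gap to the nearest was more than 0.493 of the range): Sdhb on array 9 at 10.07 log2, Atp5d on array 9 at 11.06 and Atp5k on array 8 at 10.96. There were 80 such tests, and chance gives about 1 in 20. The difference of newly transcribed over total RNA between 60 and 30 min passed its test for Uqcrc1 (1.44, adjusted p = 0.011, limma), Cox8a (1.35, adjusted p = 0.037) and Atp5a1 (1.05, adjusted p = 0.008). Without total 60 min array 2 the 3 values were 0.99, 0.43 and 0.65, with adjusted p of 0.089, 0.34 and 0.07.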

How the results depend on the processing

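Newly transcribed over total RNA at 30 min and in the 2F experiment, and 15 against 30 min, kept their counts within 1.5 times under every alternative run, as did newly transcribed over total RNA in the first 60 min experiment. For single genes, 1916 alternative values were counted as unchanged, by direction and the threshold of a call (adjusted p below 0.05 and at least 2-fold). Another 29 newly passed that threshold, 50 no longer did, 1 untested value moved and 3 reversed. The 1916 are no count of kept adjusted p-values under 2-fold. For Uqcrfs1 at 15 against 30 min the adjusted p (limma) went from 0.036 to 0.08 with the 30 min sets averaged. The 3 reversed values are those of Atp5c1, which rests on its other probe set without probe sets marked as shared between genes. It stood at 3.73 at 30 min, 2.5 at 60 min and 2.24 in the 2F experiment. Its total RNA mean was under the filter level of 5 at 30 and 60 min, so the first 2 values are no measure of size. In the 2F experiment that mean was 5.12 log2, just above the filter level, so 2.24 is no firm measure of size either. Where counts moved, the cause was not tested. Pre-existing over total RNA (0 genes) gave 6 in one fit over all arrays, 1 without shared probe sets and 0 to 4 without 1 array. At any fold, actinomycin D at 1 h (5 genes) gave 8 with quantile normalization, 8 with no filter, 9 with a filter at 7, 8 with an offset of 16, 0 in one fit over all arrays and 2 to 11 without 1 array; at 2 h (4 genes) it gave 2 with quantile normalization, 7 with no filter, 0 in one fit and 1 to 3 without 1 array. With the replicate as a block the counts were 9 at 1 h, 6 at 2 h, 5 for the 60 against 30 min difference and 3 for the 2F against 60 min difference; the block moved no other count of calls beyond 1.5 times, and where numbers did not pair arrays (30 min, 2F, 15 min) they share only a number. Total RNA at 60 min against before (1 gene) gave 0 with no filter, 2 in one fit, 0 without shared probe sets, 0 without the 2 arrays that stood apart and 0 to 8 without 1 array. The 60 against 30 min difference (3 genes) gave 5 in one fit, 0 without those 2 arrays, 0 with the 30 min sets averaged and 0 to 8 without 1 array, the 2F against 60 min difference (0) gave 5 in one fit and 0 to 10, and 60 against 30 min newly transcribed RNA 0 to 1. The median half-life was 69.2 h with an orthogonal line, 41.7 h with a filter at 5, 62.9 h with quantile normalization, 36 h with a robust line, 24.5 h with the 2F arrays and 35.2 to 572 h without 1 replicate; without replicate 1, and from pre-existing over total RNA alone, no median could be had. Averaging the 30 min sets, leaving out the 2 arrays together, the robust line and the 2F half-life were chosen after seeing the data. The 3 tissue isoforms lay under the level filter, so nothing is said of them.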
